A study of Homo sapiens with 9 samples.

Results

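The levels of 10 transcription factors that set cell fate in the intestinal epithelium were followed by messenger RNA sequencing of HCT116 cells, a human colon adenocarcinoma line, after 2 knockdowns. They were chosen by name as ASCL2, SOX9, HES1, ATOH1, KLF4, KLF5, CDX1, CDX2, HNF4A and GATA6, and each has 1 row on a primary chromosome, which makes 10 of the 63677 genes in the table. Cells received small interfering RNA (siRNA) and were taken at 48 h, in 3 groups of 3 libraries. The siRNF40 cells were depleted of RNF40, part of the enzyme that puts ubiquitin on histone H2B. The siTG2 cells were depleted of transglutaminase 2 (TG2, gene TGM2), an enzyme that the series title ties to serotonin on histone H3. The siControl cells received a control siRNA, and all groups carry the label of a wild-type genotype and the same transfection reagent. All libraries come from 1 cell line, and the labels do not give the siRNA sequences, their number per target or separate cultures for replicates, so p-values measure the spread between these libraries.

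In the crypt, stem and progenitor cells at the base give rise to absorptive cells and to secretory cells. ASCL2 and SOX9 are crypt base factors downstream of Wnt signalling. Notch signalling switches on HES1, a repressor that silences ATOH1, and cells that keep ATOH1 become secretory. KLF5 is found in proliferating crypt cells and KLF4 in differentiated cells and goblet cells above them, and both bind GC-rich promoter elements. CDX1, CDX2, HNF4A and GATA6 maintain intestinal identity and switch on genes of mature enterocytes.

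The promoters of the 4 members that the results turn on are shown because they hold different sets of letters that factors of these pathways read. They span 250 bases before to 50 after the RefSeq start in build GRCh38.p14, given 5′ to 3′ on the gene's strand, and capitals mark matches on either strand to GGGCGG (the GC box read by KLF and SP proteins), TGGGAA (the core read by RBPJ, the DNA-binding partner of Notch) or CACNAG (the N box read by HES proteins). KLF4 lies on the minus strand at chr9:107489720-107490019. KLF5 has 2 RefSeq starts on the plus strand, at chr13:73054726-73055025 and chr13:73058755-73059054, and counts per gene do not tell which was used. HES1 lies on the plus strand at chr3:194135898-194136197 and GATA6 at chr18:22169339-22169638.
KLF4: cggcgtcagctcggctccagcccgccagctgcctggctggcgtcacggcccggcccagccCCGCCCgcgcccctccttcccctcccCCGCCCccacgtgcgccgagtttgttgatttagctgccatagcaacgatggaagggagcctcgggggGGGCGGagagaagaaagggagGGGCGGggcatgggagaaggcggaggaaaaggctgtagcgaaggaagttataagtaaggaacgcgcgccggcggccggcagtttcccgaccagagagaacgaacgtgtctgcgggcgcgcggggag
KLF5 first start: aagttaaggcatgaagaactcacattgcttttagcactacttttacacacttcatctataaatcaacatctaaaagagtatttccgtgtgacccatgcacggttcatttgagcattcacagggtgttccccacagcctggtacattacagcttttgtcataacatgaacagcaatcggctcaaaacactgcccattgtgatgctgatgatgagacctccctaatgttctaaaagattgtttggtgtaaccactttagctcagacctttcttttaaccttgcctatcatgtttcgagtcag
KLF5 second start: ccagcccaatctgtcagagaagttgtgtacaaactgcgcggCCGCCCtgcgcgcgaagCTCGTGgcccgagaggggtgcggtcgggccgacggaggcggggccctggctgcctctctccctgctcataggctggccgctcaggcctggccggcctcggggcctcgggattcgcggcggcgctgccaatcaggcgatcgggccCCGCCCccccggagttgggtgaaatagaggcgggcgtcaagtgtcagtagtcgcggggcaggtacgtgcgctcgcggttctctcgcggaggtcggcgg
HES1: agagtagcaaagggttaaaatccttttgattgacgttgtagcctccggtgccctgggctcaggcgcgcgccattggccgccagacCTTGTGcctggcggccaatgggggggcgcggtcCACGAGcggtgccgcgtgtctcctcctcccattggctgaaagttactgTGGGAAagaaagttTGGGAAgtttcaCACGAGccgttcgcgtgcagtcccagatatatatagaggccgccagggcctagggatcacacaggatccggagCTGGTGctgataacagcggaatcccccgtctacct
GATA6: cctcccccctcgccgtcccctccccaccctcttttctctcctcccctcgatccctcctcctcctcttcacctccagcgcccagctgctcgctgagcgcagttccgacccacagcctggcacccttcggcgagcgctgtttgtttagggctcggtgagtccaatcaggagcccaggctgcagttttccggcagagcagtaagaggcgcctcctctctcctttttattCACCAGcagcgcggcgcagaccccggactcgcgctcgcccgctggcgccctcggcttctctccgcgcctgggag

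The KLF4 window holds 4 GC boxes and neither of the other motifs, and its GC content is 69.0%. The second KLF5 window holds 2 GC boxes and 1 N box at 71.3% GC, while the first holds no match at 40.7% GC. HES1 holds 2 RBPJ cores and 4 N boxes and no GC box, and GATA6 holds 1 N box. No matches overlap. Of 35116 RefSeq promoter windows, 45.0% hold a GC box, 24.0% an RBPJ core and 38.0% an N box, so a single match is common. Promoters were found for 7 of the 10 members, and a match describes letters and not binding.

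Reads assigned to genes numbered 30632268 to 35743918 in siRNF40, 30136581 to 33343878 in siTG2 and 29161285 to 34143599 in siControl libraries. Genes with a read numbered 25296 to 25548 in siRNF40, 27123 to 27602 in siTG2 and 25162 to 25468 in siControl. Totals after normalization were 32695081 to 33219625, 28807588 to 29454844 and 32122874 to 32404008. The siTG2 libraries thus differ as a group, and the part of this in rises of low genes there was not tested. Levels are normalized read counts, that is reads divided by a size factor per library, with means ± SD over 3 libraries (n = 3), and 1 read equals 0.88 to 1.104 units. RNF40 stood at 18.7% of its control level in siRNF40 and TGM2 at 18.5% in siTG2, so each siRNA lowered its own target. RNF40 stood at 82.8% of control in siTG2 (limma adjusted p = 0.0192). TGM2 stood at 145% of control in siRNF40, where its libraries lay above siControl, at 830 to 963 against 554 to 702 units. Its log2 fold change there was 0.54, which missed the threshold of 0.05 (limma adjusted p = 0.0633). The part of this higher TGM2 level in the siRNF40 values was not tested. RN7SL2, a 7SL RNA, had 7842, 2760 and 2689 units in siRNF40, 820 to 2317 in siTG2 and 812 to 1023 in siControl. The siRNF40 replicate 1 library thus stands apart, and values of factors without it are given where it changes a call or a direction, with list counts beside the lists. The epithelial markers EPCAM, KRT8, KRT18, KRT19 and CDH1 were abundant, while CDH17, VIL1, LGALS4 and GPA33, typical of colonic epithelium, averaged 0.344 to 23.1 units per group. The 9 epithelial markers summed to 129028 to 155862 units in siRNF40, 77642 to 88727 in siTG2 and 86960 to 95439 in siControl libraries. Of 7 tested, 5 rose and 1 fell in siRNF40, and 0 rose and 3 fell in siTG2, where an unadjusted p under 0.05, edgeR and DESeq2 also gave 0 higher. Under quantile normalization 2 rose and 0 fell in siTG2, so the direction of this list there rests on the scaling. Without siRNF40 replicate 1, 4 rose and 1 fell in siRNF40. The 8 fibroblast markers summed to 1372 to 1705 units in siRNF40, 1022 to 1176 in siTG2 and 822 to 997 in siControl libraries, of which nearly all was COL1A1, the 1 called (0.72 in siRNF40). The 8 leukocyte and endothelial markers summed to 31.4 to 56.6, 70.4 to 92.3 and 51.7 to 64.5 units in siRNF40, siTG2 and siControl, with 0 of 2 tested called. The part of these markers in the results below was not tested. Fibroblast markers DCN and LUM and the leukocyte marker CD3E were at 0 reads in all 9 libraries. The endothelial marker PECAM1 also had 0 reads, but it is listed on a patch sequence only and not on a primary chromosome. Its 0 therefore does not show that the gene was silent.

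Of the 10 factors, 7 had a mean of at least 10 units and were tested. In siTG2, KLF4 and KLF5 fell to 61.9% and 57.0% of control, while GATA6, HES1 and SOX9 rose to 156%, 125% and 114%. In siRNF40, KLF5 and HNF4A fell to 80.5% and 77.5% of control and no factor rose. By limma with Benjamini-Hochberg adjustment over 17663 genes, 3 of 7 were thus higher and 2 lower in siTG2, where 31.3% of all genes were called, 12.8% higher and 18.5% lower. In siRNF40, 0 of 7 were higher and 2 lower, where 45.3% of all genes were called, 21.7% higher and 23.6% lower, so the members' share is not above the background. At an unadjusted p under 0.05, 1 factor, KLF4, was higher in siRNF40, and edgeR and DESeq2 on whole reads called 0 higher. Both knockdowns share the siControl libraries. In bulk RNA, fewer cells of a type and less RNA per cell cannot be told apart.

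**Figure D1:**
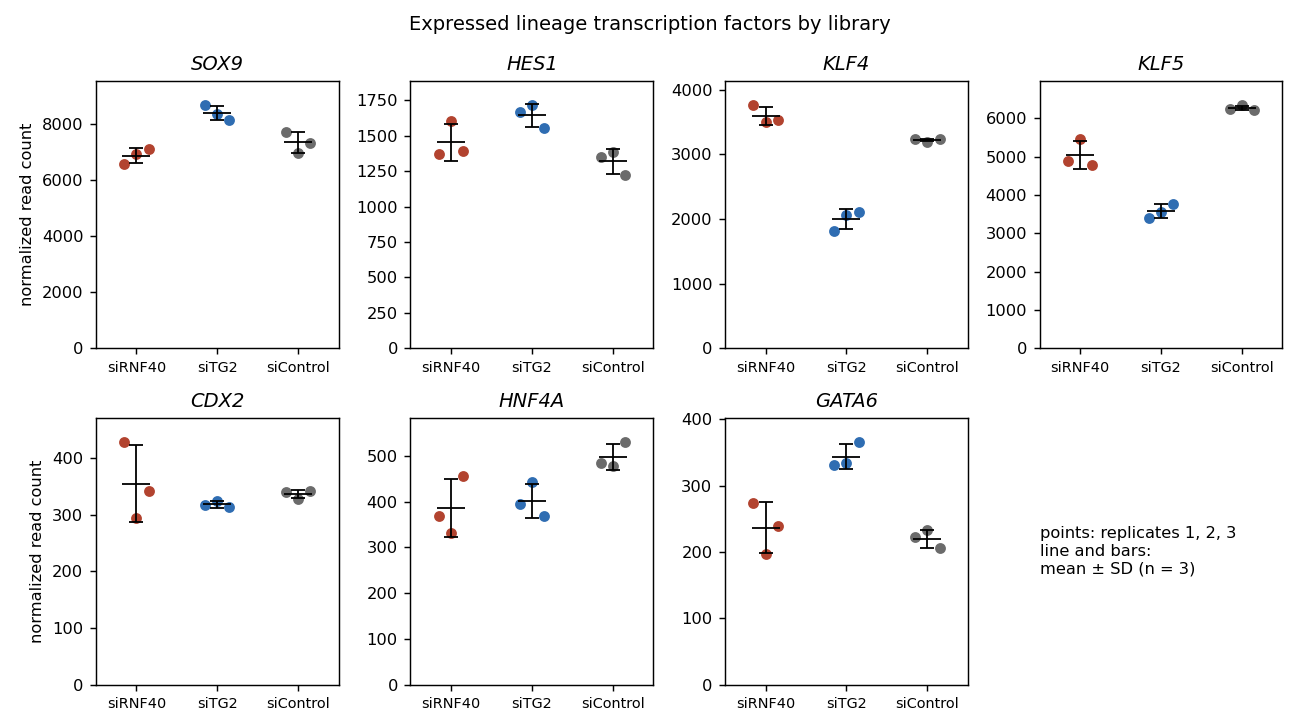
Normalized read counts of the 7 expressed factors in each library, by group on the horizontal axis, with points for replicates and bars for mean ± SD (n = 3). KLF4 and KLF5 are lowest in the siTG2 libraries, at 1816 to 2109 and 3405 to 3759, and GATA6 is highest there, at 332 to 366.

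**Figure D2:**
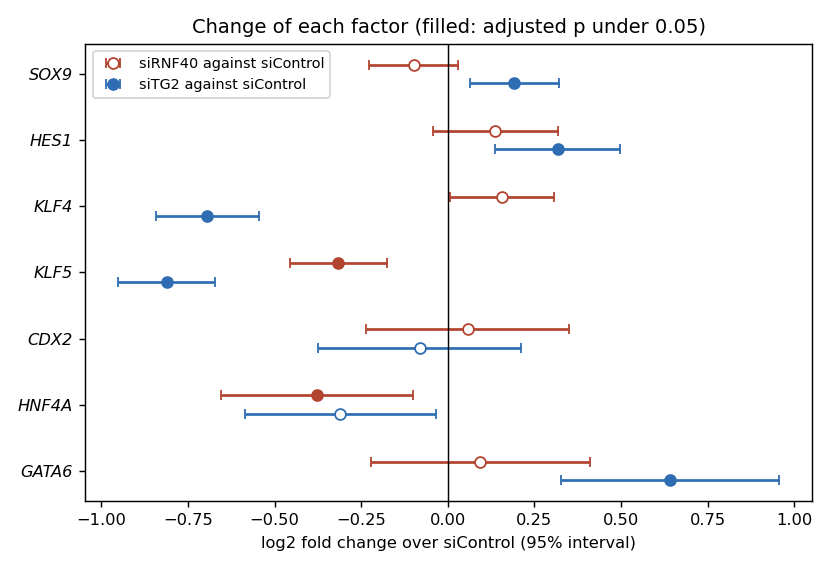
Log2 fold change of each factor over siControl on the horizontal axis, with limma's 95% interval; filled points have an adjusted p under 0.05. KLF4 stands at 0.16 in siRNF40 and -0.69 in siTG2, and KLF5 is below 0 in both knockdowns.

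ASCL2, the Wnt-driven factor of crypt stem cells, was at or near 0. It had 1 read in siRNF40 replicate 2 and 1 in siTG2 replicate 2, and 0 in the other 7 libraries. CDX1, an identity factor of the caudal homeobox family, had 1 read in siTG2 replicate 2 and 1 in siControl replicate 3. ATOH1, the switch to the secretory fate, had 0 reads in all 9 libraries. A count of 0 allows up to 3 reads, out of the 29161285 to 35743918 in a library. That limit covers counting error only. No difference between groups was detectable for these 3 genes, and no fold change is given.

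SOX9, which marks crypt base and progenitor cells, was the most abundant member per kilobase of exon. It had 6567, 6916 and 7102 units in siRNF40, 8667, 8353 and 8145 in siTG2 and 7725, 6976 and 7338 in siControl. The siTG2 libraries lay above all others, and siRNF40 overlapped siControl. SOX9 rose in siTG2 by 0.19 on the log2 scale (SE 0.0613, limma adjusted p = 0.0222). The change was 0.41 under quantile normalization and 0.34 with equal totals. The call ended without siControl replicate 2 (adjusted p = 0.121), siControl replicate 3 (0.0642) or siTG2 replicate 1 (0.0827) and with no filter on low values (0.0528), and over the alternatives the adjusted p lay between 5.88e-05 and 0.121. In siRNF40 the log2 fold change was -0.10 (adjusted p = 0.208), and siRNF40 lay below siTG2 by a tested log2 difference of -0.29 (adjusted p = 0.000537), which was -0.45 under quantile normalization and -0.47 with equal totals. SOX9-AS1, on the opposite strand, spans all 5401 bases from the start to the end of SOX9, and overlap of their exons was not counted. SOX9-AS1 averaged 92.1 units in siRNF40, 203 in siTG2 and 115 in siControl. Whether counting used strand is not given in the sources used here, so whether reads of the pair were kept apart cannot be told.

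Other crypt stem cell genes were set beside SOX9 from a list of 20, of which 16 were tested. In siTG2, 6 rose and 3 fell, with a median log2 fold change of 0.08, against -0.01 over all genes. Of the 16, 56.2% were called in siTG2 and 43.8% in siRNF40, against 31.3% and 45.3% of all genes. AXIN2, a Wnt feedback gene, averaged 439 ± 22 units in siTG2 and 179 ± 27.1 in siControl, a log2 fold change of 1.30 (adjusted p = 1e-05). SOX4, another SOX factor of crypt progenitors, had 3877 ± 63.2 in siTG2 and 1577 ± 34.2 in siControl, also 1.30 (adjusted p = 1.16e-08). LGR4, a receptor for R-spondins, rose by 1.29, and RNF43, a ligase that removes Wnt receptors, by 1.09. CD44 (-0.74), CDCA7 (-0.60) and CDK6 (-0.50) were the 3 that fell in siTG2. BMI1 and EPHB2 had 0.07 and 0.10 there (limma adjusted p = 0.535 and 0.45). In siRNF40, 1 gene of the list rose and 6 fell (median -0.11, against 0.02 over all genes). LGR4 (-0.60), LRIG1 (-0.60), CD44 (-0.57) and EPHB3 (-0.53) fell there, and RNF43, named because it was the only rise, had 0.19. CD44 and CDCA7 (-0.37 in siRNF40) thus fell in both knockdowns. The calls on LGR4, EPHB3 and RNF43 in siRNF40 each ended without at least 1 single library, that on LGR4 without siRNF40 replicate 1 or siControl replicate 3. Without siRNF40 replicate 1 the list had 1 higher and 4 lower. Without 1 library the siRNF40 counts ranged from 0 to 1 higher and 4 to 6 lower, and in siTG2 they stayed at 6 and 3. LGR5, the receptor that marks crypt stem cells, averaged 6.69, 3.67 and 2.93 units in siRNF40, siTG2 and siControl and was below the level tested.

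HES1 is the repressor that Notch switches on in progenitors, and its promoter is the one above with 2 RBPJ cores. It had 1369, 1603 and 1390 units in siRNF40, 1666, 1716 and 1552 in siTG2 and 1354, 1387 and 1220 in siControl. All siTG2 libraries lay above all siControl libraries, and siRNF40 overlapped both. HES1 rose in siTG2 by 0.32 (SE 0.086, adjusted p = 0.00816), a call that ended without siControl replicate 3 (adjusted p = 0.0538, while over the alternatives the adjusted p lay between 0.000392 and 0.0538). In siRNF40 it had 0.14 (95% interval -0.04 to 0.32, adjusted p = 0.208). The direct log2 difference of siRNF40 from siTG2 was -0.18 (adjusted p = 0.086). That difference passed under quantile normalization (0.0326), equal totals (0.00159), TMM scaling (0.0432) and edgeR with TMM (0.0438), and without siRNF40 replicate 2 (0.0238), and over the alternatives the adjusted p lay between 0.00159 and 0.249. Its own target ATOH1 was at 0 in every group.

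Of 36 other Notch pathway genes, 32 were tested. In siTG2, 9 rose and 6 fell, and in siRNF40, 8 rose and 9 fell. Medians were -0.01 and 0.09, against -0.01 and 0.02 over all genes. Of the 32, 46.9% were called in siTG2 and 53.1% in siRNF40, against 31.3% and 45.3% of all genes. DLL4, a Notch ligand, averaged 55.5 ± 5.57 units in siRNF40, 295 ± 26.5 in siTG2 and 137 ± 25.6 in siControl. It fell by 1.28 in siRNF40 and rose by 1.11 in siTG2, and the direct difference of -2.39 passed (adjusted p = 8.35e-09). DLL1, another ligand, rose by 0.73 in siTG2. RBPJ, the factor that carries the Notch signal to DNA, averaged 5187 ± 356 in siRNF40 and 9788 ± 524 in siControl (-0.92, adjusted p = 6.77e-09) and fell by 0.52 in siTG2, where HES1 rose. HES4, a relative of HES1 (-0.64), and MAML1, a coactivator (-0.59), fell in siTG2. NRARP, a Notch feedback inhibitor, had 607 ± 86.8 in siRNF40 and 268 ± 53.4 in siControl (1.18, adjusted p = 3.21e-06), and the glycosyltransferase MFNG rose by 0.98, a call that ended without siControl replicate 2. Without siRNF40 replicate 1, 9 rose and 8 fell in siRNF40. The protease ADAM17 (-0.18 in siRNF40 and -0.24 in siTG2) and the ligand JAG1 (-0.02 and -0.12) were not called.

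**Figure D3:**
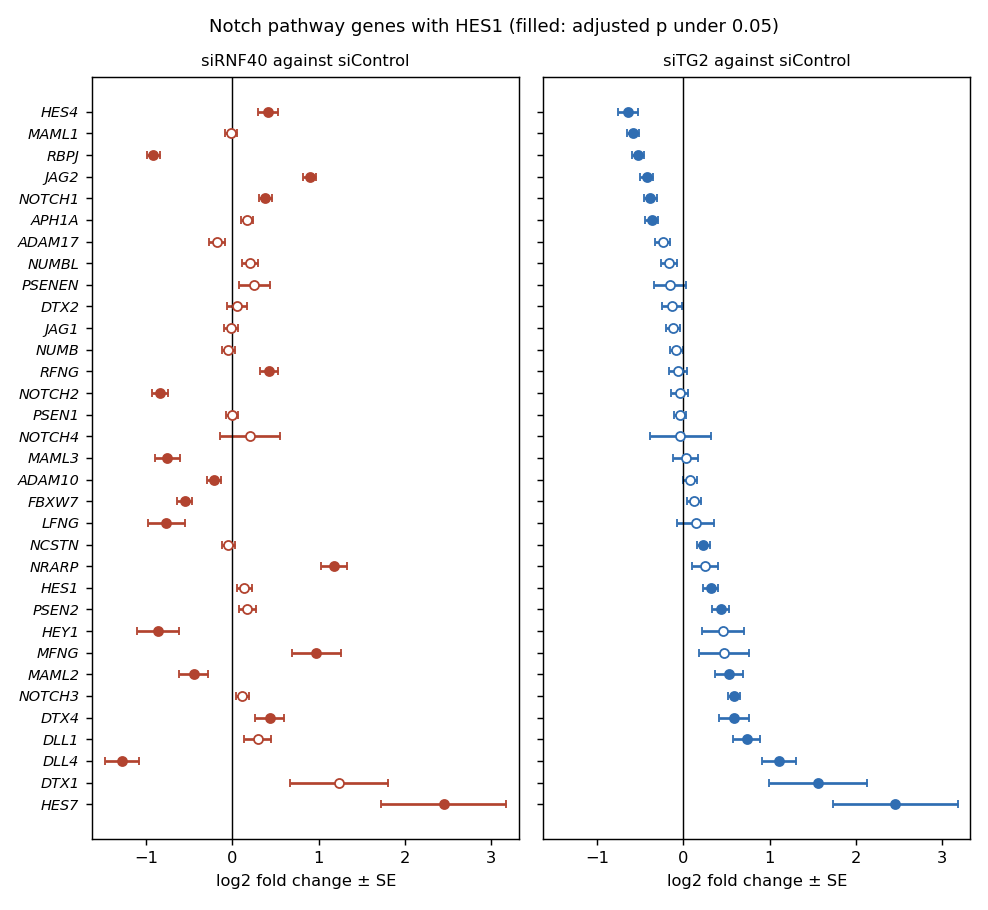
Log2 fold change ± SE of HES1 and 32 Notch pathway genes over siControl, siRNF40 at left and siTG2 at right, with rows ordered by the siTG2 value and filled points for an adjusted p under 0.05. DLL4 lies at -1.28 at left and 1.11 at right, and HES1 at 0.14 and 0.32.

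ATOH1 works with E protein partners, which ID proteins hold back, and HES1 with TLE corepressors. Of 9 such partners, inhibitors and corepressors tested, 2 rose and 2 fell in siTG2 and 4 rose and 2 fell in siRNF40. These calls are 44.4% and 66.7% of the 9, against 31.3% and 45.3% of all genes. In siTG2 the counts were 3 and 0 under quantile normalization and with equal totals and 2 and 1 with TMM scaling, and 0 to 2 were lower when 1 library was left out, with 0 without siControl replicate 2. ID2 averaged 1246 ± 33.7 units in siRNF40, 2944 ± 205 in siTG2 and 933 ± 70.1 in siControl. It rose in both, by 0.42 in siRNF40 (adjusted p = 0.000359) and by 1.66 in siTG2 (adjusted p = 4.65e-11). TLE2, a corepressor that HES proteins recruit, rose by 0.65 in siTG2, and the other TLE gene called there, TLE1, had -0.29. ID1 fell by 0.30 in siRNF40 and had -0.23 in siTG2. The siTG2 calls on TLE1 and ID1 ended under 3 and 10 of 21 alternatives, quantile normalization and equal totals among them. The E protein genes TCF3 (0.41) and TCF12 (-0.35) changed in siRNF40.

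KLF4, a factor of differentiated cells, had the largest difference between the knockdowns among the 7 tested factors. It had 3762, 3496 and 3536 units in siRNF40, 1816, 2067 and 2109 in siTG2 and 3239, 3201 and 3235 in siControl. The 3 groups did not overlap, with siTG2 lowest and siRNF40 highest. KLF4 fell in siTG2 by 0.69 (SE 0.0713, 95% interval -0.84 to -0.54, adjusted p = 5.4e-07). In siRNF40 it had 0.16 (interval 0.01 to 0.31), which missed the threshold (adjusted p = 0.0813) and passed under quantile normalization (0.22, adjusted p = 0.0145), and over the alternatives the adjusted p lay between 0.0145 and 0.234. The direct difference of siRNF40 from siTG2 was 0.85 (SE 0.0713, adjusted p = 9.24e-09). The authors' deposited table gives log2 fold changes of 0.16 for siRNF40 and -0.69 for siTG2.

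KLF5, the crypt counterpart of KLF4, fell in both knockdowns. It had 4878, 5459 and 4794 units in siRNF40, 3405, 3559 and 3759 in siTG2 and 6237, 6341 and 6227 in siControl. Again the groups did not overlap, and siTG2 was lowest. The log2 fold change was -0.32 in siRNF40 (SE 0.0664, adjusted p = 0.000669) and -0.81 in siTG2 (SE 0.0664, adjusted p = 2.78e-08), and the direct difference of 0.50 passed (adjusted p = 3.93e-06) and was 0.32 with equal totals. In siTG2, 12.5% of tested genes had a larger absolute change than KLF5 and 16.6% a larger one than KLF4. KLF4 and KLF5 kept their siTG2 calls under all 21 alternatives, with highest adjusted p of 1.63e-05 and 1.33e-06.

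The ratio of the pair was formed within each library, after their values were seen. Log2 of KLF4 over KLF5 was -0.37, -0.64 and -0.44 in siRNF40, -0.91, -0.78 and -0.83 in siTG2 and -0.95, -0.99 and -0.94 in siControl. The siRNF40 libraries had the highest ratios, and the siTG2 libraries lay just above siControl. Mean log2 ratios were higher by 0.47 in siRNF40 and by 0.12 in siTG2 than in siControl. Each comparison had p = 0.1 by a two-sided exact permutation test, the smallest that 3 against 3 allows.

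The rest of the KLF and SP family was taken as a list of 21 genes, of which 19 were tested beside KLF4 and KLF5. In siTG2, 0 rose and 9 fell, with a median of -0.11, and in siRNF40, 2 rose and 9 fell, with a median of -0.23. Medians over all genes were -0.01 and 0.02. Called were 47.4% of the 19 in siTG2 and 57.9% in siRNF40, against 31.3% and 45.3% of all genes. At an unadjusted p under 0.05, and by edgeR and DESeq2, 1 of the 19 was higher in siTG2. The siTG2 count of 0 higher became 1 with TMM scaling, 3 with quantile normalization and 5 with equal totals, with 8, 8 and 7 lower, and the median became -0.09, 0.06 and 0.04. KLF2 averaged 804 ± 57.4 units in siTG2 and 1924 ± 201 in siControl, a log2 fold change of -1.26 (adjusted p = 9.65e-09). KLF3, a repressor, had 1830 ± 166 in siTG2 and 3337 ± 172 in siControl (-0.87, adjusted p = 1.31e-07), and KLF11 (-0.84) and SP2 (-0.69) fell as well. KLF10 and SP3, the most abundant uncalled members there, had 0.02 and -0.11. In siRNF40, KLF10 averaged 5247 ± 195, against 9075 ± 273 in siControl (-0.79, adjusted p = 6.76e-09), and KLF8 (-0.66), KLF7 (-0.64) and SP3 (-0.53) fell. KLF7 also fell in siTG2 (-0.65), and KLF2 (-0.45) and KLF11 (-0.31) also fell in siRNF40. The KLF11 call in siRNF40 ended without siControl replicate 2 or siRNF40 replicate 1. The 2 that rose in siRNF40 were KLF6 (0.20) and KLF16 (0.52), both of which fell in siTG2, by 0.57 and 0.43. The KLF6 call in siRNF40 ended without siControl replicate 2, siRNF40 replicate 1 or siRNF40 replicate 2, that on KLF8 without siControl replicate 1, siControl replicate 3 or siRNF40 replicate 2, and the KLF16 call in siTG2 with equal totals. The number higher in siRNF40 was 1 without siRNF40 replicate 1 or siRNF40 replicate 2, with 8 lower in each case, and leaving out 1 library gave 1 to 3 higher and 7 to 9 lower.

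**Figure D4:**
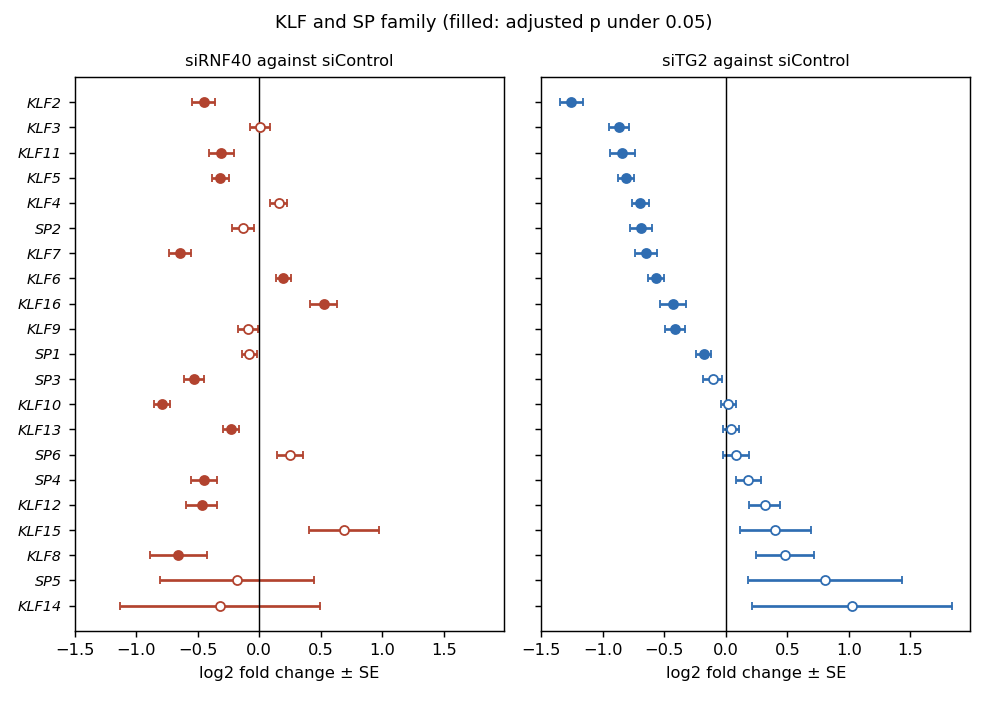
Log2 fold change ± SE of KLF4, KLF5 and 19 other KLF and SP genes over siControl, siRNF40 at left and siTG2 at right, ordered by the siTG2 value, with filled points for an adjusted p under 0.05. KLF2 is lowest in siTG2 at -1.26, and KLF4 is at 0.16 in siRNF40 and -0.69 in siTG2.

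HNF4A, a nuclear receptor that drives enterocyte genes, had lower means in both knockdowns than in siControl and passed the test in siRNF40. It had 369, 332 and 456 units in siRNF40, 396, 442 and 367 in siTG2 and 484, 478 and 530 in siControl. All siRNF40 and all siTG2 libraries lay below siControl, and the knockdowns overlapped each other. HNF4A fell in siRNF40 by 0.38 (SE 0.132, adjusted p = 0.0253), a call that ended without siControl replicate 3 (adjusted p = 0.0962), siRNF40 replicate 1 (0.068) or siRNF40 replicate 2 (0.117), and over the alternatives the adjusted p lay between 0.00403 and 0.117. In siTG2 it had -0.31 (interval -0.59 to -0.03, adjusted p = 0.082), which passed in a fit of 6 libraries (0.0416) and without siRNF40 replicate 3 (0.0467), and over the alternatives the adjusted p lay between 0.0416 and 0.361. The direct difference was -0.07 (interval -0.34 to 0.21, adjusted p = 0.698).

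CDX2, a homeobox factor of intestinal identity, was not called. It had 428, 294 and 342 units in siRNF40, 317, 325 and 314 in siTG2 and 340, 328 and 342 in siControl. The siTG2 libraries lay just below siControl, and siRNF40 spread over both, with replicate 1 highest. Log2 fold changes were 0.06 in siRNF40 (interval -0.24 to 0.35) and -0.08 in siTG2 (-0.37 to 0.21), and without siRNF40 replicate 1 the siRNF40 value was -0.09.

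GATA6, a zinc finger factor of endoderm and intestinal progenitors, rose in siTG2. It had 274, 197 and 239 units in siRNF40, 332, 334 and 366 in siTG2 and 222, 233 and 206 in siControl. All siTG2 libraries lay above all others, and siRNF40 overlapped siControl. The log2 fold change in siTG2 was 0.64 (SE 0.15, interval 0.33 to 0.96, adjusted p = 0.00288), and 19.1% of tested genes changed more. In siRNF40 it was 0.09 (interval -0.22 to 0.41), or -0.02 without replicate 1, and the direct difference of -0.55 passed (adjusted p = 0.00472). The GATA6 call held under all 21 alternatives, with adjusted p of 0.000259 to 0.0187.

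Counted over libraries, siTG2 and siControl did not overlap for 7 of the 7 tested factors, CDX2 included, against 46.5% of all genes. For KLF4, KLF5 and HNF4A, 3 of 7, siRNF40 and siControl did not overlap, against 53.2% of all genes. Between the knockdowns 2 factors were called higher in siRNF40 (KLF4 and KLF5) and 2 lower (SOX9 and GATA6), where 53.3% of all genes were called, 26.6% in each direction. The same 4 did not overlap, against 58.3% of all genes. The factors were chosen with earlier results of these data known. They average 267 to 7532 units, while all genes include those down to a mean of 10. Neither these shares nor those of the calls above therefore test the factors as a set. With equal totals the split of all called genes in siTG2 was 3872 higher and 1890 lower, against 2263 and 3270, and in the direct contrast 3278 and 6324, against 4704 and 4706. The median of all genes then stood at 0.135 in siTG2, against -0.00685, and the 5 siTG2 calls on the factors kept their direction.

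Per kilobase of exon, the order of the factors was not the same in each group. In siRNF40, mean levels per kilobase were 1744 for SOX9, 1296 for KLF5, 983 for KLF4 and 705 for HES1, followed by CDX2 at 86.0, GATA6 at 60.0 and HNF4A at 52.8, of which GATA6 and HNF4A overlapped each other. In siTG2 they were 2132 for SOX9, 918 for KLF5, 798 for HES1 and 546 for KLF4, followed by GATA6 at 87.1, CDX2 at 77.2 and HNF4A at 54.9. In siControl they were 1867 for SOX9, 1610 for KLF5, 881 for KLF4 and 640 for HES1, followed by CDX2 at 81.7, HNF4A at 68.0 and GATA6 at 55.8. HES1 thus stood above KLF4 in siTG2 and below it elsewhere, and GATA6 stood first of the 3 low factors in siTG2 and last in siControl. Neighbours in the siTG2 and siControl orders did not overlap over their 3 libraries.

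**Figure D5:**
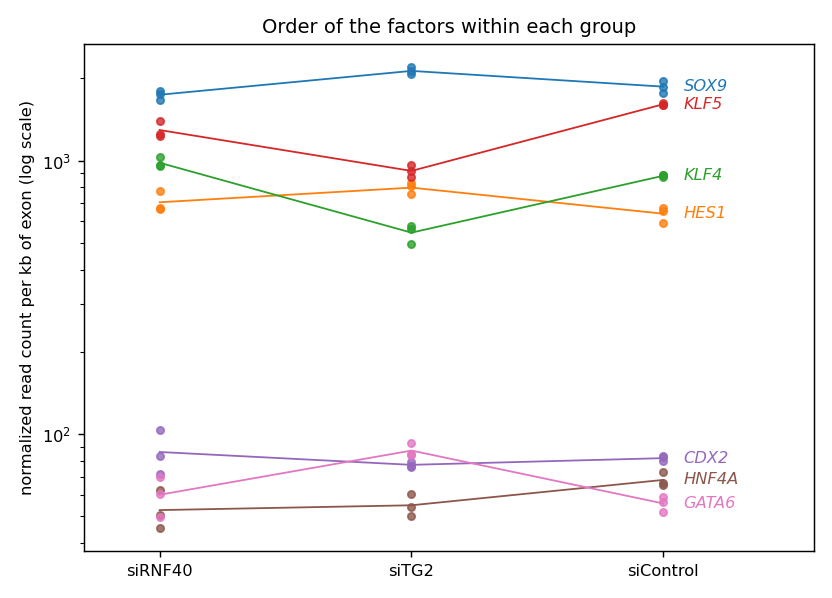
Normalized read count per kilobase of exon, on a log axis, for the 7 expressed factors in each group, with points for libraries and lines joining group means. In siTG2 HES1 lies above KLF4, at 798 and 546, and GATA6 lies above CDX2 and HNF4A, at 87.1.

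Other factors of the intestinal epithelium were taken from a list of 30, with 21 tested. In siTG2, 6 rose and 3 fell (median 0.13), and in siRNF40, 2 rose and 8 fell (median -0.15). Medians over all genes were -0.01 and 0.02. Called were 42.9% of the 21 in siTG2 and 47.6% in siRNF40, against 31.3% and 45.3% of all genes. HNF4G, a close relative of HNF4A, averaged 113 ± 16.4 units in siRNF40, 401 ± 6.55 in siTG2 and 182 ± 46.1 in siControl. It rose by 1.17 in siTG2 (adjusted p = 0.000102) and fell by 0.66 in siRNF40, a call that ended without siControl replicate 2. PPARA, a lipid-sensing receptor, rose by 1.06 in siTG2 and fell by 1.18 in siRNF40 (direct difference -2.24, adjusted p = 8.59e-12). ELF3, an epithelial ETS factor, fell by 0.77 in siTG2. HOXB13 rose in both knockdowns, by 0.71 in siTG2 and by 0.53 in siRNF40. In siRNF40 the vitamin D receptor gene VDR rose by 1.09, HOXA13 fell by 0.94 and GFI1, a secretory lineage factor, by 0.89. The HOXA13 call ended without siControl replicate 3 or siRNF40 replicate 3, and without siRNF40 replicate 1 the list had 3 higher and 8 lower in siRNF40. TCF7L2, the Wnt effector, had 0.12 in siRNF40 and -0.02 in siTG2 and was not called.

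Genes that CDX2 and HNF4A are known to control were mostly below the level tested, which 7 of 20 reached. In siTG2, 2 rose and 0 fell, and in siRNF40, 1 rose and 4 fell, with medians of 0.61 and -0.95. Medians over all genes were -0.01 and 0.02. Called were 28.6% of the 7 in siTG2 and 71.4% in siRNF40, against 31.3% and 45.3% of all genes. At an unadjusted p under 0.05, and by edgeR and DESeq2, the number lower in siTG2 was also 0. CLDN2, a pore-forming claudin, averaged 20.6 ± 7.93 units in siRNF40, 218 ± 9.22 in siTG2 and 87.2 ± 12.8 in siControl. It fell by 2.09 in siRNF40 (adjusted p = 6.64e-06) and rose by 1.32 in siTG2 (adjusted p = 0.00134). SERPINA1, the antitrypsin gene, fell by 0.44 in siRNF40 and rose by 0.61 in siTG2. The others called in siRNF40 were CDH17 (-1.60), MTTP (-1.41) and CDKN1A (1.78), the cell cycle inhibitor p21, which has other regulators too. Levels were low for CDH17, at 6.61 ± 4.54 units in siRNF40 and 19.6 ± 5.48 in siControl, and the mean of MTTP was below 50. CDH17 is also among the epithelial markers above, and CDKN1A and MTTP are among the absorptive genes below. The number lower in siRNF40 was 2 without siControl replicate 1 or siRNF40 replicate 2 and 3 without siRNF40 replicate 1. The CDH17 call ended under 7 of 20 alternatives, the MTTP call under 4 of 20 and the SERPINA1 call without siControl replicate 1. Of 32 absorptive genes, 10 were tested, and 2 rose in siTG2, DPP4 (0.82) and CA2 (0.51). Called were 20% of the 10 in siTG2 and 50% in siRNF40, against 31.3% and 45.3% of all genes. In siRNF40, CDKN1A and CEACAM1 (0.97) rose, and CA2 (-0.56), SLC15A1 (-0.51) and MTTP fell. Only CA2 of these was lower without siControl replicate 1, and 2 were lower without siRNF40 replicate 1 or siRNF40 replicate 2.

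Markers of the secretory cells that ATOH1 specifies were mostly below the level tested, like ATOH1 itself. Of 32 goblet, Paneth, enteroendocrine and tuft genes, 6 reached the level tested. Called were 33.3% of the 6 in each knockdown, against 31.3% of all genes in siTG2 and 45.3% in siRNF40. MUC2, the goblet mucin, averaged 8.75, 9.88 and 6.005 units in siRNF40, siTG2 and siControl, and NEUROG3, an enteroendocrine factor, had 0 reads in all libraries. In siTG2, PAX6 rose by 0.62, and DCLK1, a tuft cell marker, fell to 15.8 ± 9.83 units, against 65.0 ± 10.7 in siControl (-2.17, adjusted p = 0.000407). In siRNF40, FCGBP rose by 0.87. PYY, a gut hormone gene, had -1.64 there, a call that ended under 7 of 20 alternatives, among them leaving out siRNF40 replicate 1 or any 1 siControl library.

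Short words shared with lower genes were looked up in the members' transcripts, because such words can mark targets of an siRNA seed. GTCTTCA, picked among 16171 words as the most tied to lower genes in siRNF40, occurs in the 3' UTR of 12.4% of 12771 genes searched, and 54.3% of these were called lower, against 25.7% of the others. Among the 7 tested factors it occurs in HNF4A, 1 time, and not in KLF5. Of their 3' UTRs, that of HNF4A is the longest, at 4931 bases, against 1656 in KLF5. The target RNF40 holds the word 1 time in the 3' UTR and 2 times in coding sequence. GCGCCCT, picked in siTG2, occurs in 2.8% of 3' UTRs, with 39.9% lower, against 22.6%. No tested factor holds it in the 3' UTR, and in coding sequence KLF4 holds it 2 times and HNF4A and GATA6 1 time each. The target TGM2 holds it 1 time in coding sequence and 0 times in the 3' UTR. The share of all genes with a match in coding sequence was not counted, so such matches may be common. Both words were picked on changes adjusted for 3' UTR length and GC content. The shares called lower are not adjusted and come from the same libraries that picked the words. The part of either word in the values of the factors was not tested.

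The genes with the most similar profile were found by root-mean-square log2 difference over the 9 libraries, among 10296 genes. For KLF4 they were ANAPC16 (0.0444) and CDK7 (0.0517), and for KLF5 KLF11 (0.0538) and TRIM25 (0.0604). For SOX9 they were MINK1 (0.048) and SMG8 (0.0497), and for HES1 SLC38A9 (0.0563) and TOB1 (0.0636). For GATA6, SLC29A4 (0.0894) and C12orf76 (0.12) were nearest, and for HNF4A ARID3B (0.0795) and TTC23 (0.0946). KLF11 is the only one of these 12 in the lists used here.

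In the coordinates of the table, build hg19, the tested factors are protein-coding genes at chr17:70117161-70122561 (SOX9, plus strand), chr3:193853934-193856521 (HES1, plus), chr9:110247133-110252763 (KLF4, minus), chr13:73629114-73651676 (KLF5, plus), chr20:42984340-43061485 (HNF4A, plus), chr13:28536274-28545276 (CDX2, minus) and chr18:19749404-19782491 (GATA6, plus).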

How the data were processed

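Polyadenylated RNA of 9 HCT116 libraries was sequenced. Per the submitters' processing notes, Trim Galore 0.4.1, STAR 2.7.0, HTSeq 0.12.4 and DESeq2 were used, and builds hg19 and hg38 are named. Coordinates in the table are in hg19. The deposited table gives a signal per gene, the authors' counts after division by 1 size factor for each library. Columns marked NC were read as siControl, the only control group. All values (100%) lay within 0.001 of a whole read count, which allowed recovery of the reads. Further deposited tables hold the authors' DESeq2 comparisons, with log2 fold changes and a p-value per gene.

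Tests used limma 3.58.1 (R 4.3.3, trend on mean level) on log2(value + 1), which understates the change of low genes. All 9 libraries entered a single fit, and the 17663 genes with a mean of at least 10 were tested, two-sided. Calls needed a Benjamini-Hochberg adjusted p under 0.05. On whole reads, edgeR 4.0.16 with TMM called 7926 genes in siRNF40 against siControl, 5455 in siTG2 against siControl and 9430 between the knockdowns, where limma called 8000, 5533 and 9410. DESeq2 1.42.0, other pseudocounts, filters and scalings, a replicate block and leaving out each library were tried.

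The members and the 11 gene lists were chosen with earlier results of these data known. From each list up to 4 called genes with the largest change and up to 2 uncalled ones with the highest mean were named, at a mean of at least 50. Genes named to spell out a count of 5 or fewer, and LGR5, MUC2, NEUROG3 and RN7SL2, were chosen after their values were seen. So were values of a named gene in the other contrast. Exon lengths and 7-base words came from GENCODE 29, and the words were searched in 93.4% of 13678 tested protein-coding genes with pandas 2.3.3, scipy 1.17.1 and numpy 2.4.6 under Python 3.11.15.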

Additional observations from a re-analysis of the deposited data

How the results depend on the processing

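Over 21 alternatives, 418 of 441 recomputed fold changes of the 7 tested factors kept their direction and their side of the threshold. Of the others, 8 lost a call, 8 gained one and 7 changed sign, and those that changed a call stand in the report. Sign changes were of CDX2, GATA6 and HNF4A in comparisons where they were not called. With equal totals, CDX2 had 0.0615 in siTG2 against siControl and -0.0373 in siRNF40 against siTG2. Leaving out each library in turn gave -0.0872 to 0.183 for CDX2 and -0.0178 to 0.22 for GATA6 in siRNF40 against siControl, and -0.00608 to 0.264 for CDX2 and -0.193 to 0.0345 for HNF4A in siRNF40 against siTG2. The number of called factors then ranged from 1 to 2 in siRNF40, 3 to 6 in siTG2 and 4 to 5 between the knockdowns. The fewest in siTG2 came without siControl replicate 3, and 1 in siRNF40 came without siControl replicate 3, siRNF40 replicate 1 or siRNF40 replicate 2. The total of called genes stayed within 1.5 times the value given, while the split by direction moved with equal totals. With equal totals the median of all genes shifted to 0.135 in siTG2 and -0.189 between the knockdowns.

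Deviations from the group means correlated at -0.0754 to 0.0813 for libraries with the same replicate number and -0.0793 to 0.0916 for different numbers. These ranges overlapped. Whether libraries with the same number shared a culture or batch is not given in the labels and was not tested. With a replicate block, 7735, 5164 and 9203 genes were called in siRNF40, in siTG2 and between the knockdowns, and 2, 5 and 4 of the factors, as without it. Counts at or near 0 limit what can be said of ASCL2, CDX1 and ATOH1. The spread of 3 libraries limits CDX2 and HNF4A, and GATA6 in siRNF40 against siControl.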
